A study of Mus musculus with 12 samples.

Results

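Olaparib, a clinical inhibitor of PARP1 and PARP2, was compared with its solvent DMSO in M2-polarized macrophages. The comparison holds the 8 libraries labelled olaparib or DMSO, 4 of each, out of the 12 RNA-sequencing libraries of the series. The other 4 libraries, from cells treated with MNA, were not used in the fit. The cells were bone marrow-derived macrophages (BMDMs), grown from wildtype mouse marrow with M-CSF, IL-4 and IL-10 for 6 days in both groups, so the DMSO cells had been exposed to all 3 cytokines as well. The labels give 6 days of treatment with olaparib or DMSO. The study's methods give mice of 6 to 10 weeks of either sex as marrow donors. The olaparib concentration and the mouse strain of these cultures were not found in the labels or the methods. Each library is the RNA of a whole culture, so a change in RNA per cell and a change in the share of cells that hold it cannot be told apart. The question was which genes change when M2 macrophages mature in the presence of the drug.

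PARP1 and PARP2 are nuclear enzymes that sense DNA breaks and spend NAD to attach chains of ADP-ribose to proteins. M2 or alternative activation is the state that macrophages take up with IL-4, in which STAT6 drives genes such as Arg1, Mrc1, Retnla and Chil3. Classical activation, with Nos2 as its usual marker, follows interferon gamma and bacterial products. M-CSF keeps macrophages alive through its receptor Csf1r, and IL-10 signals through STAT3.

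Levels are given in CPM, counts scaled to a common library size with TMM normalization. They are written as the mean with its SD (n = 4 in each group), or for each library from replicate 1 to replicate 4. CPM is not divided by gene length, so levels are compared within a gene only. Sums over a gene list are scaled to the total counts of the library without TMM, and a part of a sum is a part of its reads. A gene was called at an adjusted p under 0.05 (edgeR's quasi-likelihood test, Benjamini-Hochberg adjustment over all genes tested), and rose or fell is written only of called genes. Fold changes are log2 of olaparib over DMSO, with positive values where olaparib was higher.

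Of 35275 listed genes, 12627 had at least 10 counts in at least 4 of the 8 libraries and were tested. With olaparib 3142 genes rose (24.9% of those tested) and 3058 fell (24.2%), so that 6200 (49.1%) changed in either direction. Among called genes the rises were larger than the falls. The median log2 fold change was 0.57 among genes that rose and −0.34 among genes that fell, and 877 genes rose but 235 fell by at least 2-fold. At least 4-fold changes were seen for 222 rising and 32 falling genes. The called genes also differed in level, as 1598 that rose and 2231 that fell averaged at least 500 counts. What part the level has in the size of the changes was not tested. Olaparib libraries lay above all DMSO libraries in 2617 genes (20.7%) and below all of them in 2677 (21.2%). In 2999 of the 3142 rising genes the olaparib library was higher in all 4 same-numbered pairs, and in 2936 of the 3058 falling genes it was lower in all 4. Counts within the gene lists are read against these shares.

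**Figure D1:**
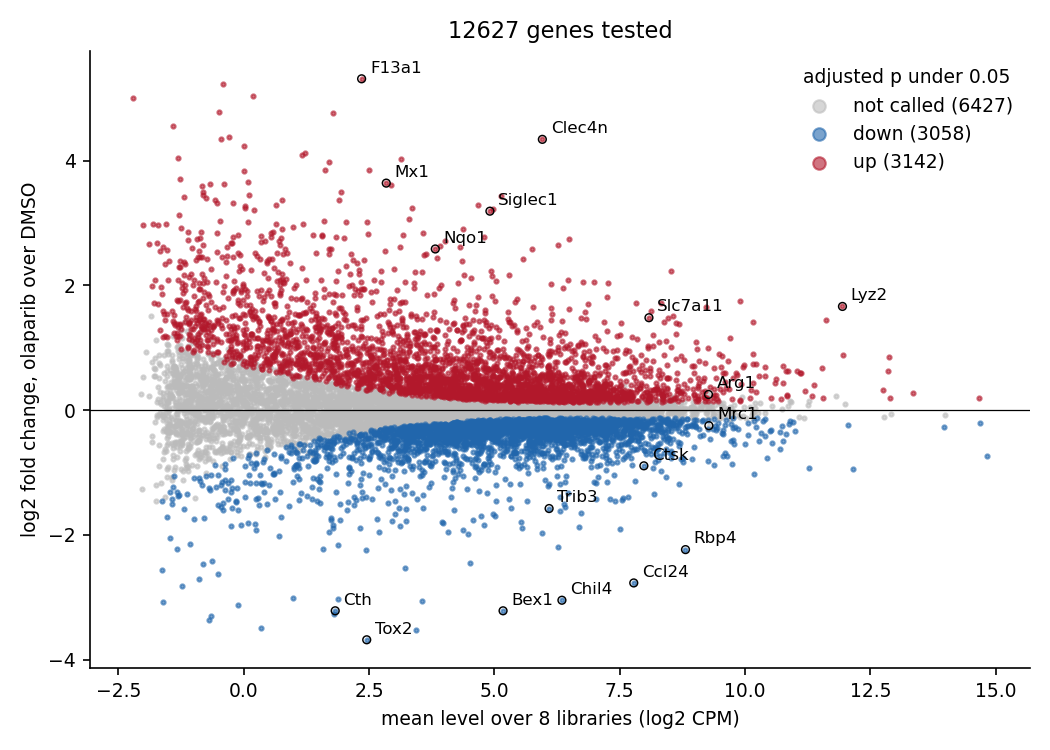
Log2 fold change of olaparib over DMSO (vertical axis) against the mean level over the 8 libraries in log2 CPM (horizontal axis), for the 12627 genes tested; red points rose (3142), blue points fell (3058) and grey points were not called. The named points show the larger upward changes (5.31 for F13a1) and that Arg1 and Mrc1 lie near 0.

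Same-numbered libraries of the groups deviated together. Pearson's r across genes between the deviations of an olaparib and a DMSO library from their group means was 0.232, 0.183, 0.249 and 0.431 for replicates 1 to 4, and −0.275 to 0.102 for libraries with different numbers. Replicate 4 carried Xist, the RNA that silences an X chromosome in females, at 22195 counts with DMSO and 15330 with olaparib, with 0 counts of the Y-linked Ddx3y. Replicates 1 to 3 had at most 7 counts of Xist and 2019 to 3176 of Ddx3y. Replicate 4 was thus female and replicates 1 to 3 male in both groups, and the replicate number was kept as a block. The first principal component held 62.6% of the variance and separated the groups, from −41.7 to −25.7 with DMSO and from 29.5 to 42.6 with olaparib. The second held 11.3% and placed the replicate numbers in the same order in both groups. Depth was 21146291 to 31446849 counts with DMSO and 24947905 to 28766984 with olaparib, so the groups overlapped.

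**Figure D2:**
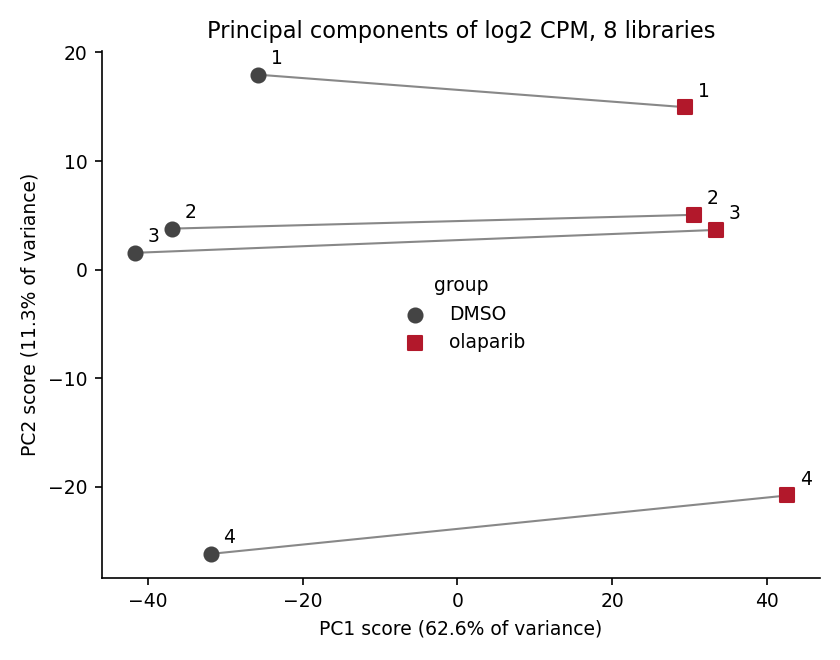
Scores of the 8 libraries on the first (62.6% of variance, horizontal) and second (11.3%, vertical) principal component of log2 CPM; circles are DMSO, squares olaparib, numbers are replicates and lines join the same number. The groups are apart on the first component, and the 4 lines run nearly level.

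The cultures carried the RNA of macrophages in both groups. Of 16 macrophage markers tested, 11 rose and 2 fell, against 24.9% and 24.2% of all genes. The median log2 fold change was 1.09 against −0.00155 over all genes tested. Csf1r, the M-CSF receptor, stood at 607, 435, 562 and 458 CPM with DMSO and 774, 770.4, 917 and 799.8 CPM with olaparib (log2 fold change of 0.67 at an adjusted p of 1.36e-05). Every olaparib library was above every DMSO library, but Csf1r was not called in a fit of all 12 libraries (adjusted p = 0.0903). Adgre1, which encodes the surface antigen F4/80, rose from 191 ± 34.6 CPM to 385 ± 23.9 CPM (log2 fold change of 1.03 at an adjusted p of 1.36e-07). Lysozyme 2 (Lyz2) rose from 1911 ± 424 CPM to 5975 ± 632 CPM (log2 fold change of 1.66 at an adjusted p of 2.6e-08), although Lyz2 shares 32.8% of its 31-base words with Lyz1. The integrin Itgam (CD11b) had a log2 fold change of 1.75, but 68.7% of its exonic length is shared with the overlapping Gm49368, which makes its reads uncertain. Cd68, a late endosomal glycoprotein, fell from 1222 ± 93.2 CPM to 834 ± 17.9 CPM (log2 fold change of −0.55 at an adjusted p of 6.13e-06). Sirpa, the receptor for CD47, was at 1378 ± 80.2 CPM with DMSO and 1333 ± 45.5 CPM with olaparib and was not called (adjusted p = 0.464).

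Markers of other cells were read from lists whose members were mostly too low to be tested. Neutrophil markers summed to 8.17 to 21.6 CPM with DMSO and 11.1 to 12.4 CPM with olaparib, with 2 of 12 tested and Ly6g at 0 counts in all 8 libraries. Erythroid markers summed to at most 4.21 CPM, and none of the 8 was tested. Stromal and endothelial markers, with 3 of 13 tested, summed to 5.86 to 13.9 CPM with DMSO and 5.23 to 9.91 CPM with olaparib. The sums of 3 lists were higher with olaparib in every library. Dendritic cell markers went from 33.2 to 38.8 up to 44.8 to 49.3 CPM, with Siglech at 0 counts, and of 5 tested among 11 there were 2 that rose (Ccr7 and Batf3) and 1 that fell (Xcr1). Markers of B, T and NK cells went from 3.69 to 7.27 up to 13.8 to 25.1 CPM, with 3 risen of 5 tested among 14, most of it Klrb1c (2.75 ± 0.488 CPM with DMSO and 13.2 ± 2.25 CPM with olaparib), which shares 21.2% of its 31-base words with other genes. Markers of eosinophils, basophils and mast cells went from 9.51 to 14.9 up to 41.4 to 63.5 CPM, most of it Siglecf, the only one of 12 that rose, while Prg2 and Mcpt8 were at 0 counts. What part such cells have in the results was not tested.

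The 12 largest rises held genes of immune recognition, coagulation and proteolysis. F13a1, the A chain of coagulation factor XIII and a marker of IL-4 macrophages (ENSMUSG00000039109, chr13:36867178-37050244), stood at 0.141, 0.137, 0.166 and 0.504 CPM with DMSO and 11.6, 7.81, 9.28 and 11.2 CPM with olaparib (log2 fold change 5.31, standard error 0.24, adjusted p = 1.84e-08). Its RNA was below 1 CPM in all DMSO libraries, and the lowest olaparib library was far above the highest of them. Clec4n, which encodes the fungal receptor dectin-2, stood at 14, 4.503, 2.89 and 4.41 CPM with DMSO and 152, 85.5, 101 and 134 CPM with olaparib. The groups lay far apart, and DMSO replicate 1 was the highest of the DMSO libraries. Siglecf (ENSMUSG00000039013, chr7:43351341-43359531), a sialic acid receptor of alveolar macrophages and eosinophils, rose from 4.74 ± 1.46 CPM to 46.1 ± 11.5 CPM (log2 fold change 3.29, standard error 0.13, adjusted p = 5.56e-09). Siglec1, the sialoadhesin of resident macrophages, rose from 6.04 ± 1.81 CPM to 54.1 ± 8.7 CPM (log2 fold change of 3.19 at an adjusted p of 4.79e-08). The remaining 8 of the 12 largest rises were Il1f9 (4.02), Tnfaip8l3 (3.84), Mx1 (3.64), Ifi27l2a (3.61), Penk (3.50), Mmp8 (3.44), Slc36a2 (3.23) and Lsp1 (3.22), each given as log2 fold change. Mx1 and Ifi27l2a are interferon-stimulated, Il1f9 is an interleukin of the IL-1 family, Penk the precursor of enkephalins, Mmp8 a collagenase and Lsp1 an actin-binding protein of leukocytes.

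The 12 largest falls held carriers, chromatin proteins and cytokine genes. Rbp4, the plasma carrier of retinol, stood at 559, 908, 829 and 676 CPM with DMSO and 117, 163, 166 and 182 CPM with olaparib (log2 fold change −2.24, standard error 0.08, adjusted p = 3.67e-09). All 4 olaparib libraries were far below the lowest DMSO library. Hmga2, a chromatin protein of embryonic and dividing cells, fell from 20.9 ± 3.09 CPM to 2.54 ± 0.852 CPM (log2 fold change of −3.05 at an adjusted p of 2.47e-08). Car6, a secreted carbonic anhydrase, fell from 19.8 ± 5.503 CPM to 1.804 ± 1.504 CPM (log2 fold change of −3.53 at an adjusted p of 1.01e-07). Socs3, the inhibitor of cytokine signalling that STAT3 induces after IL-10, stood at 14.8, 15.7, 20.96 and 12.03 CPM with DMSO and 3.12, 1.68, 2.32 and 3.68 CPM with olaparib (log2 fold change −2.53, standard error 0.21, adjusted p = 1.5e-06). The others were Tox2 (−3.68), Bex1 (−3.22), Cth (−3.22), Chil4 (−3.05), Prkg1 (−3.03), Ccl24 (−2.77), Efcc1 (−2.45) and Fbln5 (−2.24), again as log2 fold change. For Bex1, 30% of its 31-base words occur in other genes and 18.8% of its exonic length lies opposite Tceal7. In a fit of all 12 libraries, which lets the MNA libraries add to the spread, Chil4 (adjusted p = 0.0688), Fbln5 (adjusted p = 0.0758) and Rbp4 (adjusted p = 0.145) were no longer called.

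**Figure D3:**
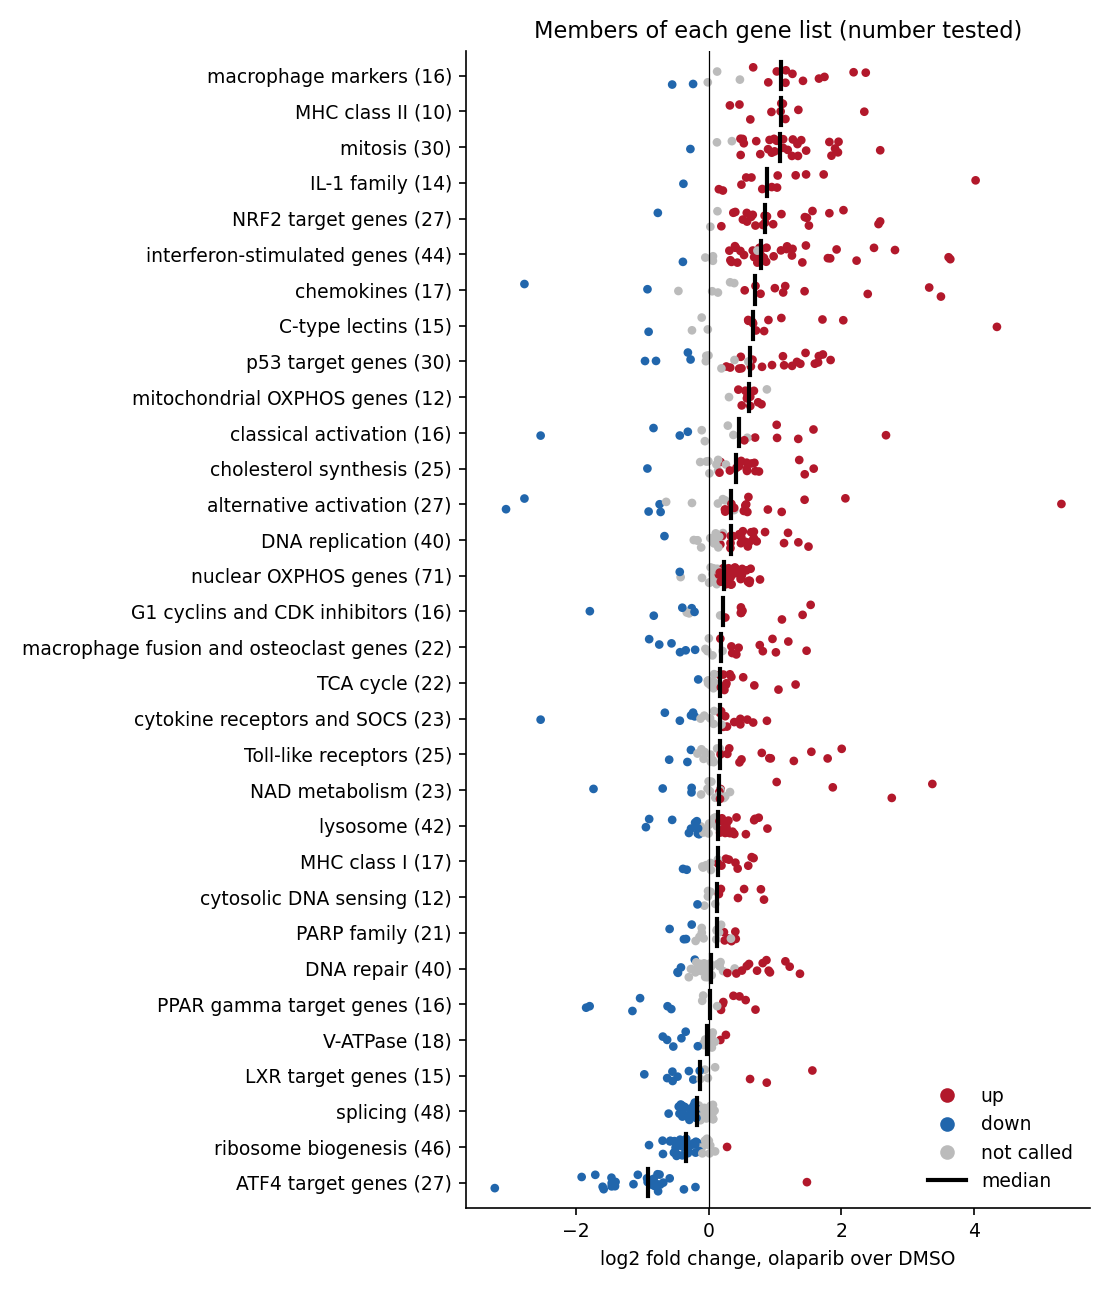
Log2 fold change of olaparib over DMSO (horizontal axis) for every tested member of 32 gene lists (rows, with the number tested); red members rose, blue fell, grey were not called, and the bar is the median. ATF4 target genes lie lowest (median −0.92), and macrophage markers, MHC class II and mitosis genes highest (medians 1.09, 1.09 and 1.07).

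The RNA of the drug's targets showed small changes. Of 21 genes of the PARP family and of ADP-ribose removal, 6 rose and 4 fell, shares close to those of all genes, and none changed by 2-fold. Parp1, whose product the drug inhibits, stood at 63.9, 61.1, 55.9 and 58.8 CPM with DMSO and 73.3, 69.4, 70.02 and 70.6 CPM with olaparib (log2 fold change of 0.24 at an adjusted p of 0.00185). Parp2 stood at 25.98, 23.7, 25.5 and 24.9 CPM with DMSO and 22.2, 20.7, 20.3 and 20.8 CPM with olaparib (log2 fold change of −0.25 at an adjusted p of 0.00628). The groups did not overlap for either gene, and the differences were small and opposite in sign. The larger rises were those of Parp14 (log2 fold change of 0.41) and Parp12 (0.40), mono-ADP-ribosyltransferases that are also interferon-stimulated. The larger falls were those of Zc3hav1 (log2 fold change of −0.59), the antiviral protein ZAP, Tiparp (−0.37), which represses the aryl hydrocarbon receptor, and the tankyrase Tnks (−0.34). In the fit of 12 libraries 2 family members rose and 3 fell, and Parp2 was lost (adjusted p = 0.067).

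Genes of NAD metabolism changed in both directions. Of 23 genes tested 7 rose (30.4%) and 4 fell (17.4%), shares close to those of all genes, with a median log2 fold change of 0.16. The largest rises were those of Kynu and Haao of the kynurenine branch, which makes NAD from tryptophan, and the largest fall was that of Tdo2, its first enzyme (log2 fold change of −1.73, chosen after its value was seen). Tdo2 did not reach a mean of 50 counts. Ido1 and Kmo, of the same list, were too low to be tested. Kynu, kynureninase, stood at 0.799, 0.378, 0.995 and 0.504 CPM with DMSO and 3.399, 5.23, 10.2 and 8.58 CPM with olaparib (log2 fold change 3.37, standard error 0.26, adjusted p = 8.43e-07). Haao, which makes the last precursor before quinolinate, stood at 0.658, 0.481, 0.332 and 0.283 CPM with DMSO and 2.62, 2.62, 2.94 and 3.404 CPM with olaparib (log2 fold change of 2.76 at an adjusted p of 9.85e-06). Both genes were low with DMSO and clearly detected in every olaparib library. Bst1 (CD157), an NAD glycohydrolase, rose from 1.18 ± 0.673 CPM to 4.14 ± 1.25 CPM (log2 fold change of 1.87 at an adjusted p of 0.00016). The salvage enzyme Nampt was at 153 ± 16.2 CPM with DMSO and 173 ± 15.1 CPM with olaparib, a small rise (adjusted p = 0.00839) with overlapping groups that was not called without the replicate block (adjusted p = 0.0909). Sirt1, an NAD-dependent deacetylase, fell from 44.7 ± 3.32 CPM to 27.7 ± 2.01 CPM (log2 fold change of −0.69 at an adjusted p of 1.76e-06). Nadk, which phosphorylates NAD, and Slc25a51, the mitochondrial NAD carrier, had log2 fold changes of −0.25 and −0.26. Nnmt, the methyltransferase that makes MNA from nicotinamide, and Qprt, the next enzyme after Haao, had 0 counts in all 8 libraries, which allows up to 3 counts in each. Without the block 4 genes of the list rose in place of 7.

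More M2 genes rose than fell, but they did not all move together. Of 27 genes of alternative activation tested, 16 rose (59.3%) and 5 fell (18.5%), against 24.9% and 24.2% of all genes. The median log2 fold change was 0.34. The largest rise in the list was that of F13a1 (log2 fold change of 5.31), given above. Arginase 1 stood at 692, 434, 619.6 and 463 CPM with DMSO and 615, 396, 699.8 and 1027 CPM with olaparib and was not called (adjusted p = 0.228). Olaparib replicate 4 was the highest of the 8 libraries and olaparib replicate 2 the lowest. Mrc1, the mannose receptor CD206, stood at 731, 608, 820.4 and 544 CPM with DMSO and 686, 465, 504 and 617 CPM with olaparib (adjusted p = 0.0735). Retnla, the secreted protein FIZZ1, stood at 1139.7, 610.03, 1021 and 765 CPM with DMSO and 820.2, 872, 1841 and 748 CPM with olaparib (adjusted p = 0.281). In both genes the groups overlapped, and olaparib replicate 3 stood apart for Retnla. These results depended on the libraries and the filter. Mrc1 was called without the pair of replicate 1 (log2 fold change of −0.30, adjusted p = 0.0401) and without that of replicate 4 (−0.39, adjusted p = 0.00777), and Retnla without the pair of replicate 1 (0.45, adjusted p = 0.00512). With no filter on low counts Arg1 (adjusted p = 4.93e-05), Mrc1 (adjusted p = 1.77e-05) and Retnla (adjusted p = 0.00042) were all called, in the same directions as in the main test. That fit tested 21040 genes, but the counts of these 3 genes were the same. Their log2 fold changes were 0.245, −0.255 and 0.209, against 0.25, −0.25 and 0.22 in the main test. No change is read from these calls, because p-values also depend on the other genes in a fit.

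The 5 M2 genes that fell included chitinase-like proteins and an eotaxin. Chil3, the chitinase-like protein Ym1, stood at 30474, 34492, 50279 and 30840.0 CPM with DMSO and 22177, 16955, 26836 and 20941 CPM with olaparib (log2 fold change −0.74, standard error 0.09, adjusted p = 3.2e-05). All olaparib libraries were below all DMSO libraries, but in the fit of 12 libraries Chil3 was not called (adjusted p = 0.62), and 41.5% of its 31-base words occur in other genes, mostly Chil4. Its paralog Chil4 fell further, from 146 ± 52.8 CPM to 16.95 ± 2.08 CPM. The eotaxin Ccl24, which attracts eosinophils, stood at 478, 345, 431 and 277 CPM with DMSO and 40.97, 45.9, 91.4 and 51.2 CPM with olaparib (log2 fold change of −2.77 at an adjusted p of 1.03e-07). Klf4, a transcription factor that works with STAT6, fell from 136 ± 6.98 CPM to 82.4 ± 7.69 CPM (log2 fold change of −0.72 at an adjusted p of 3.75e-07). Clec10a, a galactose lectin, fell as well (log2 fold change of −0.90) with overlapping groups. On the other side, Matk, a kinase that restrains Src family kinases, rose from 47.1 ± 5.201 CPM to 87.2 ± 8.29 CPM (log2 fold change of 0.89 at an adjusted p of 6.01e-07). Flt1, a VEGF receptor, had a log2 fold change of 0.53 with overlapping groups. Its call was lost in 6 of 19 alternatives, the fit of 12 libraries among them (adjusted p = 0.346). Ear2, a ribonuclease chosen after its values were seen, rose from 40.1 ± 9.89 CPM to 179 ± 97.6 CPM, but 60.5% of its 31-base words are shared, mostly with Ear1. Without the block 13 genes of the list rose in place of 16, and 10 where olaparib replicate 4 was left out too. With 12 libraries 13 rose, and 1 fell in place of 5.

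Genes of classical activation changed in both directions too. Of 16 genes tested 7 rose (43.8%) and 4 fell (25%), against 24.9% and 24.2% of all genes. Il6, Il12b, Il1b, Cxcl9 and Cxcl10 were too low to be tested. Nos2, the inducible nitric oxide synthase, stood at 12.6, 19.5, 22.5 and 20.6 CPM with DMSO and 30.7, 43.9, 90.4 and 69.8 CPM with olaparib (log2 fold change 1.58, standard error 0.12, adjusted p = 5.57e-07). Every olaparib library was above every DMSO library, and replicate 3 gave the highest value in both groups. Acod1, which makes itaconate, rose from 11.7 ± 1.98 CPM to 29.96 ± 7.25 CPM (log2 fold change of 1.35 at an adjusted p of 3.5e-06). Irf5, a transcription factor of inflammatory macrophages, rose from 181 ± 22.3 CPM to 262 ± 6.88 CPM (log2 fold change of 0.54 at an adjusted p of 1.61e-05). Cd40, a receptor for T cell help, fell from 8.92 ± 0.904 CPM to 5.06 ± 1.204 CPM (log2 fold change of −0.83 at an adjusted p of 0.000631). The arginine transporter Slc7a2 had a log2 fold change of −0.31 with overlapping groups, and its call was lost in 5 of 19 alternatives. Cd86, a ligand of CD28, was at 3.53 ± 0.966 CPM with DMSO and 3.35 ± 0.791 CPM with olaparib and was not called (adjusted p = 0.851).

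**Figure D4:**
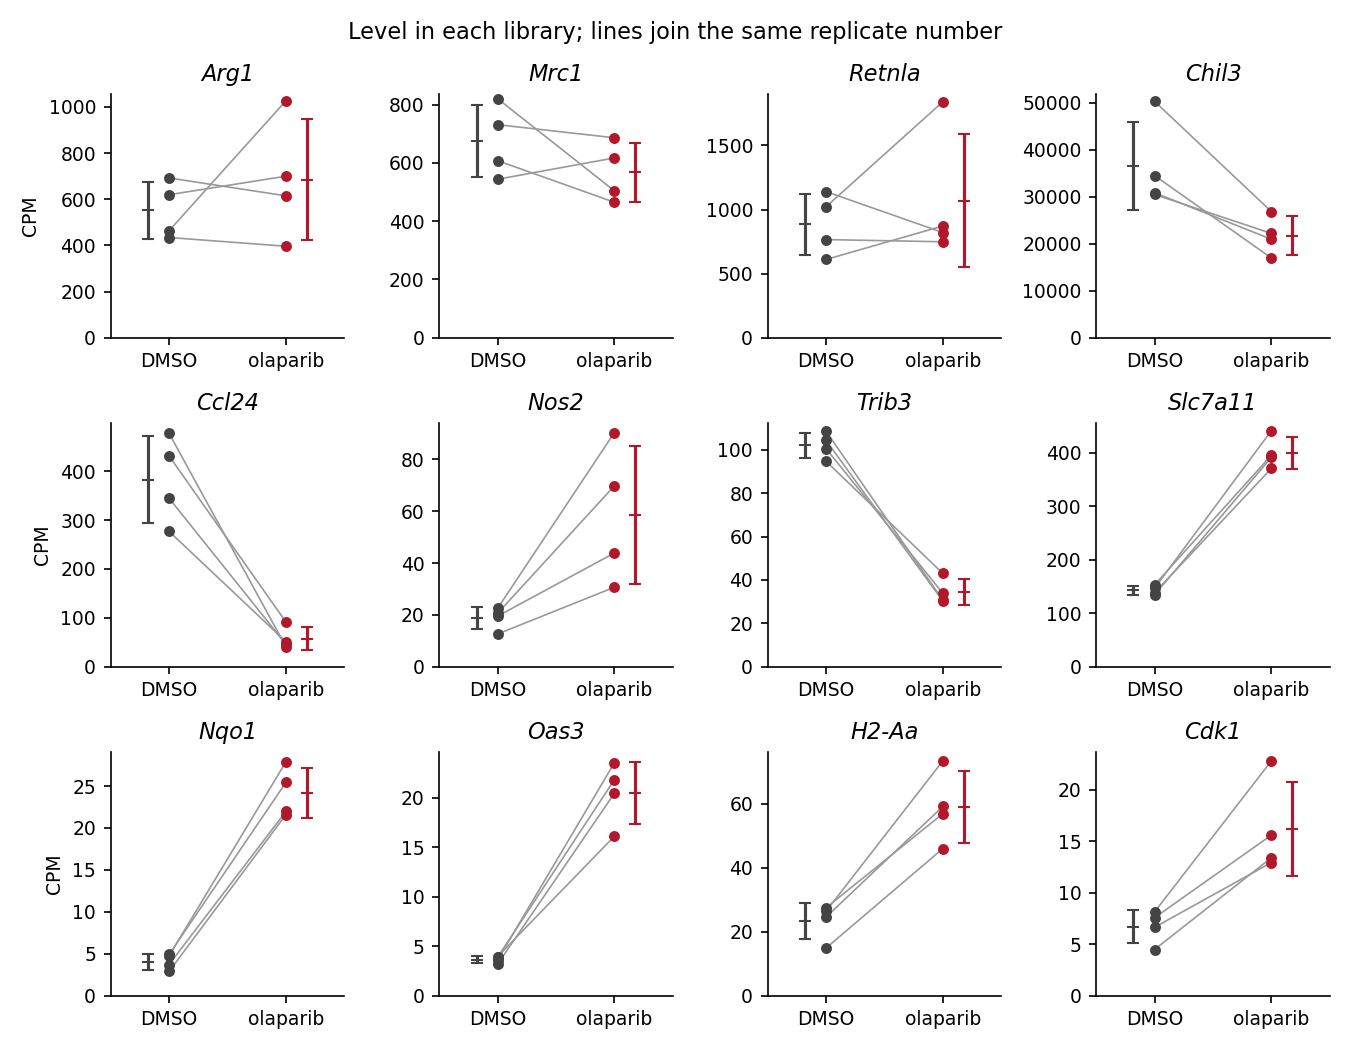
Level in CPM (vertical axes, from 0) in each of the 8 libraries for 12 genes; lines join the same replicate number, and the bars beside the points are mean ± SD (n = 4). Arg1, Mrc1 and Retnla overlap between the groups, and the other 9 genes do not.

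Nearly all genes of the amino acid response fell. ATF4 is the transcription factor that the integrated stress response makes when amino acids run short or the endoplasmic reticulum is under stress. It raises genes of amino acid synthesis and uptake, tRNA charging and one-carbon metabolism. Of 27 ATF4 target genes, all tested, 26 fell and 1 rose, against 24.2% of all genes that fell. The median log2 fold change was −0.92. In 25 of the 26 falling genes all olaparib libraries were below all DMSO libraries, against 21.2% of all genes tested. The only one that rose was Slc7a11. In each of the 4 pairs taken alone, 26 of the 27 genes were lower with olaparib. The median over the list was −0.65, −0.92, −0.99 and −1.06 in pairs 1 to 4.

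Trib3, a pseudokinase that feeds back on ATF4 (ENSMUSG00000032715, chr2:152337422-152344032), stood at 94.7, 101, 109 and 104 CPM with DMSO and 42.98, 33.8, 30.6 and 30.2 CPM with olaparib (log2 fold change −1.58, standard error 0.09, adjusted p = 1.2e-07). Ddit3, the transcription factor CHOP, stood at 106, 97.6, 109.9 and 98.1 CPM with DMSO and 54.7, 47.6, 47.1 and 47.3 CPM with olaparib (log2 fold change −1.06, standard error 0.06, adjusted p = 4.65e-08). Slc7a5, the large neutral amino acid transporter, stood at 71.8, 68.6, 72.4 and 82.5 CPM with DMSO and 30.3, 27.6, 23.5 and 26.01 CPM with olaparib (log2 fold change −1.46, standard error 0.07, adjusted p = 3.74e-08). In all 3 genes the lowest DMSO library was well above the highest olaparib library, which was replicate 1 each time. Atf4, Phgdh, Asns and Chac1 were chosen after their values were seen, to show the arms of the pathway. Atf4 itself, which is counted in the list, fell from 410.3 ± 15.3 CPM to 256 ± 16.5 CPM (log2 fold change of −0.68 at an adjusted p of 1.33e-06). Phgdh, the first enzyme of serine synthesis, fell from 290.0 ± 57.9 CPM to 76.2 ± 7.51 CPM, although 55.8% of its 31-base words also occur in other loci. Asns, asparagine synthetase, fell from 274 ± 29.7 CPM to 103 ± 13.2 CPM (log2 fold change of −1.41 at an adjusted p of 3.36e-07). Chac1, which breaks down glutathione, fell from 49.5 ± 6.46 CPM to 15.2 ± 2.904 CPM (log2 fold change of −1.71 at an adjusted p of 4.85e-07). Cth, which makes cysteine from cystathionine, stood at 4.51, 7.29, 5.804 and 7.998 CPM with DMSO and 1.13, 0.937, 0.29 and 0.382 CPM with olaparib, below 10 CPM in every library.

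Slc7a11, the cystine importer, is a member of both the ATF4 and the NRF2 list. Slc7a11 stood at 147, 138, 134 and 153 CPM with DMSO and 441, 371, 391 and 395 CPM with olaparib (log2 fold change 1.48, standard error 0.05, adjusted p = 3.67e-09). Its olaparib libraries were all more than 2 times its highest DMSO library. The upstream sequences of Slc7a11 and of list members that fell hold the same motif, and are shown to compare them. The capitals mark the core of the amino acid response element that ATF4 binds with C/EBP partners (TGATGNAA or its reverse complement, a search added after the values were seen). The sequences are from RefSeq on GRCm38.p6, lie before the start of transcription and run 5′ to 3′ on the strand of the gene. Slc7a11 (chr3:50443623-50443709, minus strand) has 2 copies in opposite orientation, and Chac1 (chr2:119351019-119351086, plus strand), Gars (chr6:55037941-55038000, plus strand) and Atf3 (chr1:191183406-191183473, minus strand) have 1 each.
Slc7a11: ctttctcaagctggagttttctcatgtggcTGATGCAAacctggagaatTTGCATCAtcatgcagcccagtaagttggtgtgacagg
Chac1: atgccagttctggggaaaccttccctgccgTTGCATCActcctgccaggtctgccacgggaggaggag
Gars: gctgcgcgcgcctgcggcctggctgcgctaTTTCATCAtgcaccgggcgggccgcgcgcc
Atf3: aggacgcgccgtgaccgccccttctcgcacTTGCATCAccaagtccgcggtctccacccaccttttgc
Gars and Atf3 were chosen after their values were seen. Gars, which charges tRNA with glycine, had a log2 fold change of −0.74, and Atf3, a stress transcription factor, of −0.37. In windows from 250 bases before to 50 after the start, given for 24 of the 27 genes, 9 (37.5%) had this core, against 4.51% of all 27025 genes with a window and 2.86% of the tested genes with one. A match describes the letters and not a bound site, and the gene that rose had the motif as well as genes that fell.

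**Figure D5:**
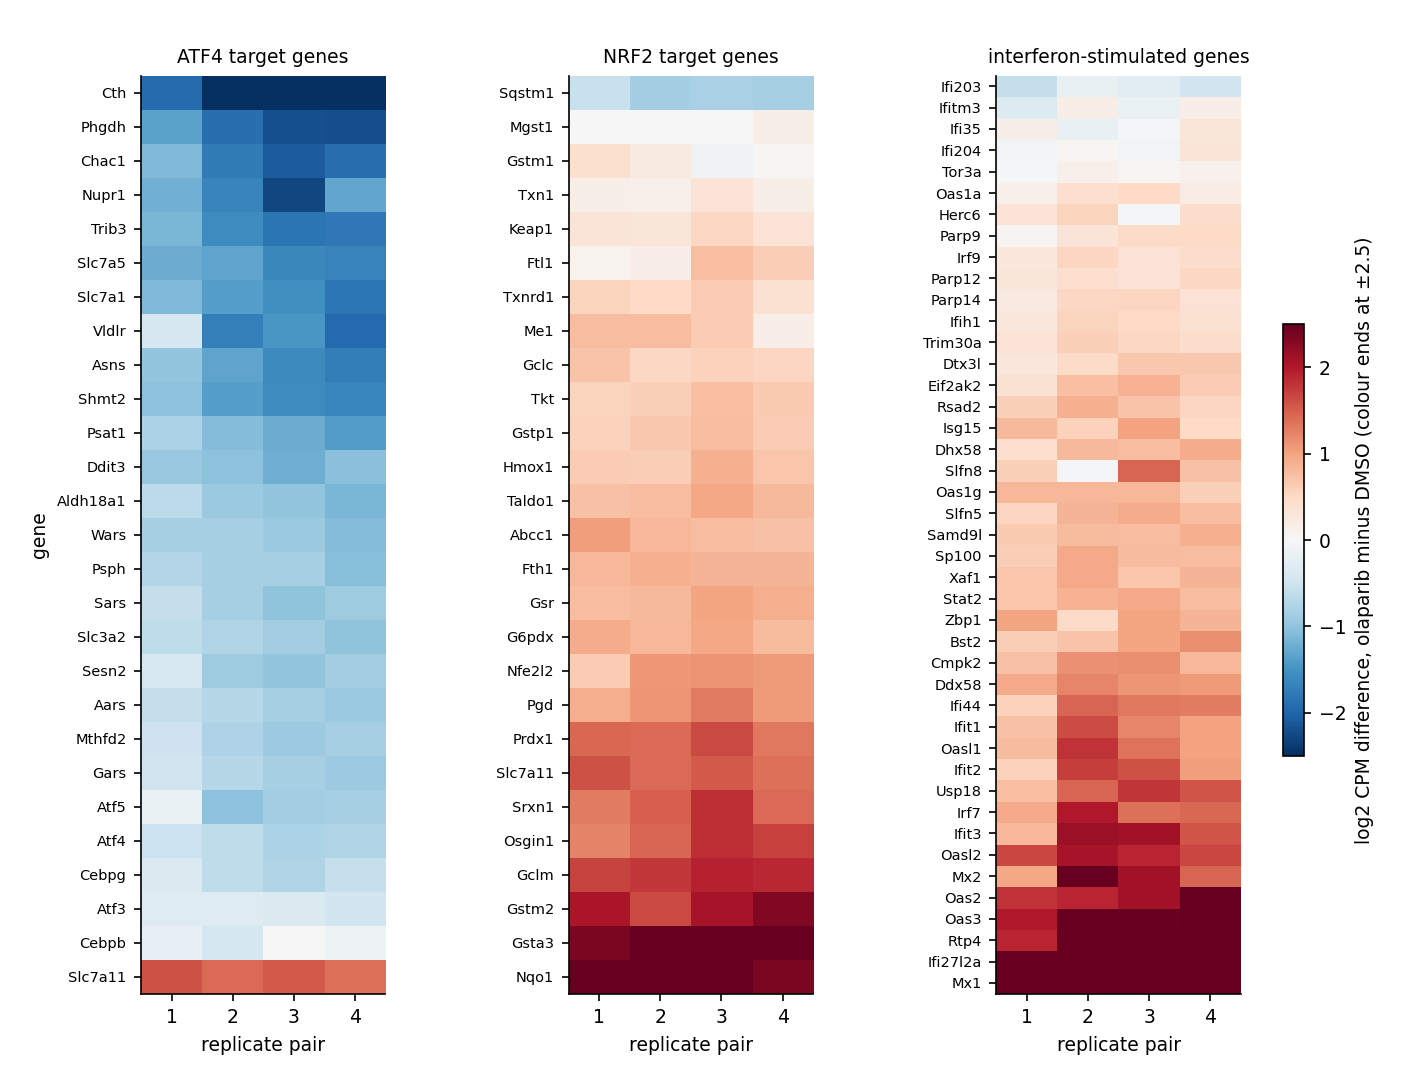
Log2 CPM difference of olaparib minus DMSO within each of the 4 same-numbered pairs (columns) for the tested members of 3 lists (rows, ordered by log2 fold change, with 1 interferon-stimulated gene not shown); blue is lower and red higher with olaparib, and colours end at ±2.5. ATF4 target genes are blue except Slc7a11 and a single pair near 0 of Cebpb, NRF2 target genes are red except Sqstm1 and pairs near 0 of Gstm1 and Mgst1, and interferon-stimulated genes are mostly red.

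Nearly all NRF2 target genes rose. NRF2, the product of Nfe2l2, switches on genes of glutathione synthesis, NADPH supply and quinone reduction under oxidative stress. Of 27 genes, all tested, 24 rose and 1 fell, against 24.9% of all genes that rose, with a median log2 fold change of 0.84. Nqo1, the quinone reductase that is the usual reporter of NRF2, stood at 4.75, 3.71, 2.89 and 4.91 CPM with DMSO and 27.9, 21.97, 21.6 and 25.4 CPM with olaparib (log2 fold change 2.58, standard error 0.10, adjusted p = 5.56e-09). Gclm, the regulatory subunit of the enzyme that starts glutathione synthesis, stood at 77.8, 65, 57.3 and 68.8 CPM with DMSO and 252, 220.1, 218 and 255 CPM with olaparib (log2 fold change 1.82, standard error 0.06, adjusted p = 1.48e-09). Both genes rose in every pair with a narrow spread. Nfe2l2 itself, which is counted in the list, rose from 356 ± 46.2 CPM to 695 ± 26.6 CPM (log2 fold change of 0.97 at an adjusted p of 8.91e-07). The gene that fell was Sqstm1, the autophagy receptor p62, from 1742 ± 101 CPM to 1026 ± 55.4 CPM (log2 fold change of −0.76 at an adjusted p of 1.09e-06). The transferase Gsta3 (log2 fold change of 2.56) and the peroxidase Prdx1 (1.45, with 15.2% of its 31-base words in other loci), chosen after their values were seen, carry the antioxidant response element core (TGACNNNGC or its reverse complement) upstream, as does Gclm. They are shown with the core in capitals, from RefSeq on GRCm38.p6, for Gclm (chr3:122245393-122245461, plus strand), Prdx1 (chr4:116685436-116685504, plus strand) and Gsta3 (chr1:21240434-21240502, plus strand).
Gclm: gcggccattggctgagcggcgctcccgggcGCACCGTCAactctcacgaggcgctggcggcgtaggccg
Prdx1: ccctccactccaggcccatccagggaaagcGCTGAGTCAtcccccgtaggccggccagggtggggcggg
Gsta3: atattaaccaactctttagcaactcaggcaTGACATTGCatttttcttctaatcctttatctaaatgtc
Of 23 list genes with a window, 10 (43.5%) had the core, against 13.99% of all genes and 17.1% of tested genes.

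Most interferon-stimulated genes rose. Type I interferons act on many of their target genes through the interferon-stimulated response element. Of 44 genes tested 38 rose (86.4%) and 1 fell (2.27%), against 24.9% and 24.2% of all genes. The median log2 fold change was 0.78, and 15 rose by at least 2-fold. Oas3, a sensor of double-stranded RNA, stood at 3.95, 3.61, 3.88 and 3.18 CPM with DMSO and 16.1, 23.5, 21.8 and 20.5 CPM with olaparib (log2 fold change 2.49, standard error 0.12, adjusted p = 2.17e-08). Oasl2, its relative, rose from 13.5 ± 2.37 CPM to 48.2 ± 10.7 CPM (log2 fold change of 1.83 at an adjusted p of 1.05e-08). Irf7, the factor that amplifies interferon production, stood at 5.92, 4.74, 8.03 and 6.298 CPM with DMSO and 11.5, 19.3, 21.1 and 17.2 CPM with olaparib (log2 fold change 1.47, standard error 0.14, adjusted p = 3.97e-06). Olaparib replicate 1 was the lowest olaparib library for all 3 genes and still above every DMSO library. Isg15, a ubiquitin-like modifier, rose from 3.29 ± 0.657 CPM to 5.48 ± 1.21 CPM (log2 fold change of 0.73 at an adjusted p of 0.00137). The gene that fell was Ifi203 (log2 fold change of −0.39), a nuclear protein with DNA-binding domains. Ifnb1, the interferon beta gene, had 0 counts in all 8 libraries, which allows up to 3 in each.

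The response element core (GAAANNGAA or its reverse complement) is in capitals in the sequences upstream of Oas3 (chr5:120777690-120777764, minus strand), Isg15 (chr4:156200846-156200926, minus strand) and Ifit3 (chr19:34583344-34583465, plus strand), which hold 2, 3 and 3 matches, some of them overlapping, from RefSeq on GRCm38.p6.
Oas3: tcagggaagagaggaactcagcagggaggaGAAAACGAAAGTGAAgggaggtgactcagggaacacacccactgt
Isg15: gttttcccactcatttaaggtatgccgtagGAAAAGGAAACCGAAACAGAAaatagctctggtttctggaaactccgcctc
Ifit3: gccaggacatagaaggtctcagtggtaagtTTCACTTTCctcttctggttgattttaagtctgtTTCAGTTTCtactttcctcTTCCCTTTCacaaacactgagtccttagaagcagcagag
Ifit3, which binds viral RNA and was chosen after its values were seen, rose from 0.842 ± 0.138 CPM to 2.99 ± 1.198 CPM (log2 fold change of 1.80 at an adjusted p of 0.000131), but 61.8% of its 31-base words are shared with Ifit3b, which makes its reads uncertain. Of the 31 list genes with a window 19 (61.3%) had the core, against 9.76% of all genes and 8.86% of tested genes.

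The cytosolic DNA-sensing pathway, which leads to interferon, changed in part. Of 12 genes tested 6 rose and 1 fell, against 24.9% and 24.2% of all genes, with a median log2 fold change of 0.13. Samhd1, which removes deoxynucleotides, rose from 402 ± 74.05 CPM to 687 ± 56.6 CPM, Ikbke, a kinase upstream of IRF3, from 17.9 ± 1.46 CPM to 26.1 ± 3.46 CPM, and Tmem173, the adaptor STING, from 31.9 ± 1.61 CPM to 43.4 ± 3.88 CPM. Trex1 was at 0 counts in all 8 libraries. Whether its reads were lost to an overlapping gene was not tested, so the 0 is not read as absent expression.

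All tested genes of MHC class II rose. MHC class II presents peptides to CD4 T cells, and Ciita is its master regulator. Of 10 genes tested 10 rose, against 24.9% of all genes that rose, with a median log2 fold change of 1.09. The chain H2-Aa stood at 27.5, 14.9, 24.6 and 26.4 CPM with DMSO and 56.9, 46.02, 59.2 and 73.5 CPM with olaparib (log2 fold change 1.35, standard error 0.08, adjusted p = 1.36e-07). Both subunits of the peptide exchanger rose too, H2-DMa from 17.2 ± 2.68 CPM to 38.2 ± 5.64 CPM and H2-DMb1 from 12.7 ± 1.36 CPM to 27.6 ± 3.97 CPM, the latter with 31.4% of its 31-base words in H2-DMb2. Ciita rose from 6.76 ± 1.53 CPM to 13 ± 3.198 CPM (log2 fold change of 0.95 at an adjusted p of 0.000139). In the fit of 12 libraries 3 of the 10 were called, and Ciita (adjusted p = 0.21) and H2-Aa (adjusted p = 0.0546) were not. Of 17 genes of MHC class I 9 rose (52.9%) and 2 fell (11.8%), against 24.9% and 24.2% of all genes. The median log2 fold change was 0.14. H2-K1 rose from 597 ± 92.96 CPM to 908 ± 172 CPM with overlapping groups, the peptide transporter Tap1 from 38.9 ± 5.02 CPM to 61.7 ± 14.7 CPM, and the immunoproteasome subunit Psmb9 from 22.1 ± 2.08 CPM to 35.7 ± 8.14 CPM. Erap1, which trims peptides, and the editor Tapbpl fell by 0.38 and 0.33 on the log2 scale. The call of Tapbpl was lost in 4 of 19 alternatives. With 12 libraries 2 of the class I genes rose.

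Genes of the IL-1 family and its inflammasome rose with 1 exception. Of 14 genes tested 13 rose and 1 fell, against 24.9% and 24.2% of all genes, with a median log2 fold change of 0.88. Il1f9 stood at 0.9397, 1.24, 0.763 and 1.07 CPM with DMSO and 19.6, 15.6, 11.8 and 19.3 CPM with olaparib (log2 fold change 4.02, standard error 0.14, adjusted p = 3.15e-09). Nlrp3, the sensor of the inflammasome, stood at 7.94, 5.22, 4.48 and 5.605 CPM with DMSO and 18.4, 13.9, 11.7 and 20.1 CPM with olaparib (log2 fold change 1.47, standard error 0.11, adjusted p = 8.44e-07). Pycard, its adaptor ASC, rose from 47.7 ± 2.84 CPM to 92.2 ± 6.58 CPM (log2 fold change of 0.95 at an adjusted p of 2.11e-07). Every olaparib library was above every DMSO library for these 3 genes. The receptor chain Il1rap fell (log2 fold change of −0.38). Il1b was too low to be tested.

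Of 17 chemokines tested 10 rose and 2 fell, against 24.9% and 24.2% of all genes, with a median log2 fold change of 0.71. Pf4, which is chemotactic for monocytes, stood at 7.28, 5.91, 4.84 and 7.43 CPM with DMSO and 21.3, 28.5, 32.6 and 54.8 CPM with olaparib (log2 fold change of 2.40 at an adjusted p of 3.89e-07). Ccl8 fell (log2 fold change of −0.92, adjusted p = 0.00707) with overlapping groups and was not called without the block (adjusted p = 0.0596). Of 15 C-type lectins 11 rose and 1 fell. Clec4d, the mycobacterial receptor MCL, stood at 30.1, 24.6, 25.1 and 30.8 CPM with DMSO and 117, 109, 104 and 119 CPM with olaparib (log2 fold change 2.03, standard error 0.06, adjusted p = 9.62e-10). Clec4a1 rose from 4.17 ± 1.86 CPM to 13.1 ± 2.75 CPM. Of 25 genes of Toll-like receptor signalling 12 rose and 3 fell. Among the rises were those of Tlr13 from 136 ± 7.79 CPM to 256 ± 20.6 CPM, Tlr8 from 81.9 ± 11.3 CPM to 142 ± 12.3 CPM and Tlr7 from 20.3 ± 2.44 CPM to 38.8 ± 4.11 CPM, which sense RNA in endosomes. In the fit of 12 libraries Tlr7 was not called (adjusted p = 0.0937). The receptor of lipopolysaccharide Tlr4 (log2 fold change of −0.32) and its adaptor Ticam2 (−0.59) fell.

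Receptors and transducers of the cytokines in the medium changed in both directions. Of 23 genes 11 rose (47.8%) and 6 fell (26.1%), against 24.9% and 24.2% of all genes. Il10ra, the IL-10 receptor, rose from 41.6 ± 4.85 CPM to 76.2 ± 5.66 CPM (log2 fold change of 0.88 at an adjusted p of 1.5e-06). Stat3 fell from 182 ± 19.1 CPM to 115 ± 6.27 CPM (log2 fold change of −0.66 at an adjusted p of 8.39e-07). Socs3 fell as given above, while Socs2, an inhibitor induced by STAT5, rose from 15.7 ± 2.67 CPM to 23.4 ± 1.097 CPM (log2 fold change of 0.58 at an adjusted p of 0.000117). With 12 libraries 6 genes of the list rose and 3 fell.

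Most p53 target genes rose, and Trp53 itself fell. Of 30 target genes, all tested, 20 rose (66.7%) and 4 fell (13.3%), against 24.9% and 24.2% of all genes. The median log2 fold change was 0.62. Ak1, adenylate kinase 1, stood at 94.3, 124, 92.3 and 112 CPM with DMSO and 317, 338, 355 and 378 CPM with olaparib (log2 fold change 1.72, standard error 0.07, adjusted p = 8.17e-09). Ephx1, an epoxide hydrolase, stood at 73.4, 55.1, 55.3 and 60.9 CPM with DMSO and 169, 166, 170.4 and 163 CPM with olaparib (log2 fold change of 1.46 at an adjusted p of 2.07e-08). Zmat3, an RNA-binding p53 target, rose from 31.2 ± 2.83 CPM to 67.9 ± 4.91 CPM (log2 fold change of 1.12 at an adjusted p of 8.95e-08). These 3 genes rose in every pair. Cdkn1a, the inhibitor p21, stood at 401, 423, 374 and 388 CPM with DMSO and 564, 552, 532 and 571 CPM with olaparib (log2 fold change 0.49, standard error 0.05, adjusted p = 9.59e-06). The response element of p53, searched by its degenerate consensus, was found in 1 of 24 list genes with a window, Cdkn1a, and in 20 of 27025 genes. Its match is in capitals in the sequence upstream of Cdkn1a (chr17:29090876-29090967, plus strand) from RefSeq on GRCm38.p6. The capitals run over both units of the consensus and the bases between them, which the search left free.
Cdkn1a: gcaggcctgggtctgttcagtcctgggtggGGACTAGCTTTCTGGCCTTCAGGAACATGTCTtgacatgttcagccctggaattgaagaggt
Trp53 itself was at 77.9 ± 3.37 CPM with DMSO and 65.2 ± 1.88 CPM with olaparib (log2 fold change −0.26, adjusted p = 0.00136). The genes with the smallest p among those that fell were Sesn2 (log2 fold change of −0.79), Plk2 (−0.31) and Gdf15 (−0.96), of which Sesn2 also stands in the ATF4 list. With 12 libraries 18 targets rose and 1 fell.

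Most genes of mitosis rose. Of 30 mitosis genes, all tested, 27 rose and 1 fell, against 24.9% and 24.2% of all genes. The median log2 fold change was 1.07. Cdk1, the mitotic kinase, stood at 7.56, 6.63, 4.48 and 8.12 CPM with DMSO and 15.6, 12.9, 13.4 and 22.8 CPM with olaparib (log2 fold change 1.27, standard error 0.12, adjusted p = 3.43e-06). Top2a, topoisomerase II alpha, stood at 17.3, 14.6, 10.8 and 20.8 CPM with DMSO and 31.8, 23.2, 20.9 and 46.1 CPM with olaparib (log2 fold change 0.92, standard error 0.08, adjusted p = 2.72e-06). Ncapd2, a condensin subunit, rose from 5.85 ± 1.71 CPM to 12.7 ± 3.56 CPM. These 3 genes were highest in olaparib replicate 4, and the summed level of the list was 119 to 192 CPM with DMSO and 204 to 403 CPM with olaparib. The member that fell, the spindle assembly factor Tpx2, had a log2 fold change of −0.27 with overlapping groups. Its call was lost in 5 of 19 alternatives.

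Of 40 genes of DNA replication tested 24 rose and 1 fell, against 24.9% and 24.2% of all genes. The median log2 fold change was 0.33. Pcna, the sliding clamp, rose from 223 ± 14.9 CPM to 326 ± 12.8 CPM (log2 fold change of 0.55 at an adjusted p of 9.59e-06), Rfc2, a subunit of its loader, from 24.97 ± 1.29 CPM to 40.1 ± 2.36 CPM, and Rrm2, the small subunit of ribonucleotide reductase, from 5.86 ± 3.24 CPM to 15.7 ± 5.59 CPM. Cdt1, which licenses origins, fell from 38.8 ± 3.39 CPM to 24.5 ± 1.37 CPM (log2 fold change of −0.66 at an adjusted p of 9.42e-06). This count depended on single libraries. Without olaparib replicate 4 and without the block 8 genes of the list rose, and without the pair of replicate 4 it was 15.

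The regulators of G1 changed in opposite directions. Of 16 genes 8 rose (50%) and 5 fell (31.25%), against 24.9% and 24.2% of all genes. The cyclins Ccnd2 and Ccnd3 rose from 6.403 ± 1.76 CPM to 18.4 ± 3.799 CPM and from 12.6 ± 3.01 CPM to 27.02 ± 5.796 CPM. Cdkn1c, the inhibitor p57, rose from 8.98 ± 1.68 CPM to 23.9 ± 3.72 CPM, with 30.7% of its exonic length under an antisense gene. Cdkn2a, the locus of p16 and p19 ARF, stood at 23.6, 31.6, 19.3 and 21.2 CPM with DMSO and 9.98, 6.52, 4.81 and 6.56 CPM with olaparib (log2 fold change −1.79, standard error 0.14, adjusted p = 8.91e-07). Its neighbour Cdkn2b, the inhibitor p15, fell from 14.4 ± 3.15 CPM to 8.11 ± 1.63 CPM (log2 fold change of −0.82 at an adjusted p of 2.75e-05), and Cdk4 had a log2 fold change of −0.25.

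Genes of DNA repair had a median close to that of all genes. Of 40 genes, all tested, 13 rose (32.5%) and 4 fell (10%), against 24.9% and 24.2% of all genes. The median log2 fold change was 0.04. Among the rises were the checkpoint kinase Chek2 from 12.2 ± 0.783 CPM to 21.4 ± 1.69 CPM, the Fanconi anaemia protein Fancd2 from 1.22 ± 0.313 CPM to 3.19 ± 0.986 CPM, and the recombination factor Brca1 from 8.21 ± 1.34 CPM to 12.4 ± 1.102 CPM. The falls held the break sensor Nbn (log2 fold change of −0.47), the kinase Atm (−0.46) and the ligase Lig3 (−0.42). Without olaparib replicate 4 and without the block 6 rose.

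PPAR gamma is a nuclear receptor that IL-4 induces in macrophages to support lipid uptake and oxidation. Of 16 target genes 7 rose (43.75%) and 6 fell (37.5%), against 24.9% and 24.2% of all genes. The median log2 fold change was 0.02. Pparg, itself counted in the list, stood at 191, 179.8, 272 and 196 CPM with DMSO and 77.5, 97.2, 123 and 81.96 CPM with olaparib (log2 fold change −1.15, standard error 0.07, adjusted p = 1.01e-07). Fabp4, a fatty acid carrier, stood at 66.4, 62.7, 102 and 56.6 CPM with DMSO and 18.1, 17.4, 26.9 and 19.7 CPM with olaparib (log2 fold change −1.79, standard error 0.07, adjusted p = 5.8e-09). Plin2, which coats lipid droplets, fell from 1560.5 ± 230.2 CPM to 761 ± 86.9 CPM (log2 fold change of −1.03 at an adjusted p of 3.45e-08). All 3 fell in every pair and without overlap. Rxra, the partner receptor of PPAR gamma and also in the list, rose from 51.9 ± 2.55 CPM to 76.5 ± 5.63 CPM (log2 fold change of 0.56 at an adjusted p of 4.68e-06).

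LXR target genes, which export cholesterol, held 3 that rose and 8 that fell of 15, against 24.9% and 24.2% of all genes. Abca1, the cholesterol exporter, fell from 371 ± 109 CPM to 242 ± 77.2 CPM (log2 fold change of −0.62 at an adjusted p of 1.61e-06) with overlapping groups, in all 4 pairs. Its call was lost in 6 of 19 alternatives, the fit of 12 libraries among them (adjusted p = 0.149). Nr1h3, LXR alpha itself and also counted in the list, fell from 40.9 ± 4.57 CPM to 27.9 ± 1.86 CPM. Scd1, a fatty acid desaturase, fell from 26.1 ± 5.303 CPM to 13.8 ± 5.26 CPM with overlapping groups. Lpl, the lipoprotein lipase, rose from 2836 ± 669.8 CPM to 5120.5 ± 453 CPM (log2 fold change of 0.88 at an adjusted p of 1.59e-05). Of 25 genes of the cholesterol synthesis list 16 rose and 1 fell, with a median log2 fold change of 0.42. Hmgcs1, which makes HMG-CoA and has 12.1% of its exonic length opposite Gm48342, rose from 55.2 ± 1.697 CPM to 77.8 ± 7.57 CPM and Stard4, a sterol carrier, from 17.1 ± 0.864 CPM to 27.7 ± 2.42 CPM. Insig1, which holds back the sterol-sensing machinery, fell from 99.5 ± 16.3 CPM to 52.2 ± 3.17 CPM (log2 fold change of −0.92 at an adjusted p of 2.02e-06). In the fit of 12 libraries 1 gene of the sterol list rose in place of 16, and 3 LXR genes fell in place of 8.

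Genes of oxidative phosphorylation rose by small amounts. Of 71 subunits encoded in the nucleus 46 rose and 1 fell, against 24.9% and 24.2% of all genes. Their median log2 fold change was 0.23, and none changed by 2-fold. Cox6b1, a subunit of cytochrome oxidase, rose from 84.8 ± 2.94 CPM to 128 ± 8.38 CPM (log2 fold change of 0.59 at an adjusted p of 3.31e-06). The gene that fell, Ndufs8, is a subunit of complex I (log2 fold change of −0.43, adjusted p = 2.11e-05). Of 12 subunits encoded in mitochondria 10 rose and none fell, with a median of 0.61. Among them were mt-Co1, from 5813 ± 694 CPM to 8947 ± 489 CPM, and mt-Nd6, from 319.8 ± 34.4 CPM to 557 ± 66.3 CPM. Of the 31-base words of mt-Co1, 63.9% also occur in nuclear copies. All genes of the mitochondrial chromosome together took 1.04% to 1.35% of the counts with DMSO and 1.59% to 1.82% with olaparib, a difference whose part in these results was not tested. Of 22 genes of the TCA cycle list, which also holds genes beside the cycle, 13 rose and 1 fell. The median log2 fold change was 0.18. The 2 genes named here are of those beside the cycle. Idh1, the cytosolic isocitrate dehydrogenase, rose from 158 ± 10.9 CPM to 256 ± 22.3 CPM (log2 fold change of 0.69 at an adjusted p of 2.85e-06), and Pdk1, the kinase that closes pyruvate dehydrogenase, from 5.72 ± 1.25 CPM to 11.7 ± 1.28 CPM (log2 fold change of 1.05 at an adjusted p of 7.11e-06).

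Most genes of ribosome biogenesis and many of splicing fell by small amounts. Of 46 genes of ribosome biogenesis 34 fell and 1 rose, against 24.2% and 24.9% of all genes. The median log2 fold change was −0.34. Nop58, a core protein of the particles that modify ribosomal RNA, stood at 57.7, 57.9, 53.5 and 53.8 CPM with DMSO and 33.3, 32.01, 28.6 and 26.3 CPM with olaparib (log2 fold change −0.90, standard error 0.06, adjusted p = 2.2e-07). Of the factors that process the small subunit, Wdr43 fell from 64.3 ± 4.84 CPM to 43.1 ± 3.78 CPM and Rrp12 from 32.3 ± 2.65 CPM to 20.05 ± 2.23 CPM. Of 48 splicing genes 26 fell and none rose, with a median of −0.18. The RNA-binding protein Rbm39 fell from 349 ± 15.4 CPM to 232 ± 29.3 CPM (log2 fold change of −0.60 at an adjusted p of 2.22e-05), the SR protein Srsf6 from 165 ± 6.97 CPM to 125 ± 5.68 CPM, and Sfpq, a paraspeckle protein, from 164 ± 8.44 CPM to 125 ± 7.71 CPM. None of these 94 genes changed by 2-fold. Beside them, the median log2 fold change over all genes was 0.0002 with RLE and 0.0252 with upper-quartile normalization.

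Lysosomal genes changed in both directions, with falls at about the share of all genes. Of 42 genes 21 rose (50%) and 10 fell (23.8%), against 24.9% and 24.2% of all genes. The median log2 fold change was 0.15. Man2b1 and Glb1, which remove sugars from glycoproteins, rose from 766 ± 58.5 CPM to 1236 ± 151 CPM and from 91.8 ± 5.69 CPM to 155 ± 12.3 CPM. Ctsh, a cathepsin, rose from 41.2 ± 6.76 CPM to 75.9 ± 10.6 CPM. Cathepsin L (Ctsl) stood at 4944, 6243, 8281 and 4810.5 CPM with DMSO and 2524, 3044, 3823 and 3066 CPM with olaparib (log2 fold change −0.94, standard error 0.07, adjusted p = 9.33e-07). It fell in every pair, and 26.8% of its exonic length lies opposite another gene. Of 18 subunits of the V-ATPase, the pump that acidifies lysosomes, 6 fell (33.3%) and 2 rose (11.1%). Atp6v0a1 stood at 2046, 1949, 2151 and 1947 CPM with DMSO and 1430.2, 1351, 1348 and 1138 CPM with olaparib (log2 fold change −0.62, standard error 0.06, adjusted p = 4.07e-06). Atp6v1c1 fell from 447 ± 44.1 CPM to 276 ± 6.72 CPM (log2 fold change of −0.69 at an adjusted p of 2.04e-06). The CLEAR element core (TCACGTGA) was in the windows of 3 of 33 lysosomal genes (9.09%), against 1.12% of all genes and 2.25% of tested genes. In the fit of 12 libraries 1 lysosomal gene fell in place of 10, and Ctsl was not called (adjusted p = 0.181).

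Macrophages fuse into giant cells after IL-4 and into osteoclasts after RANKL. Of 22 genes of these programmes 11 rose (50%) and 6 fell (27.3%), against 24.9% and 24.2% of all genes. The median log2 fold change was 0.19. Dcstamp, the membrane protein that fusion requires, stood at 283, 164, 129 and 196 CPM with DMSO and 521, 541, 523 and 479 CPM with olaparib (log2 fold change 1.48, standard error 0.14, adjusted p = 3.74e-06). Tyrobp, the signalling adaptor DAP12, rose from 243 ± 32.2 CPM to 488 ± 11.7 CPM (log2 fold change of 1.01 at an adjusted p of 2.05e-07), and the tetraspanin Cd81 from 63.1 ± 17.5 CPM to 106 ± 16.4 CPM. Ctsk, the collagenase of osteoclasts, stood at 268, 340.4, 377 and 327 CPM with DMSO and 148, 178, 229.8 and 156 CPM with olaparib (log2 fold change of −0.89 at an adjusted p of 2.96e-07). The integrin Itgb3 fell from 951 ± 122 CPM to 565 ± 24.1 CPM (log2 fold change of −0.74 at an adjusted p of 1.16e-05), and the kinase Src from 100.5 ± 8.82 CPM to 68.9 ± 12.9 CPM. With 12 libraries 3 of the 6 falls were called, and Ctsk was not (adjusted p = 0.322).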

How the data were processed

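RNA of 12 BMDM cultures was sequenced, of which the 4 DMSO and 4 olaparib libraries were compared. The authors deposited raw counts of reads per gene, made from single-end reads of a stranded mRNA library with STAR 2.5.2b on GRCm38.p5. Which strand column was deposited is not given in the sources used here. Of the 35275 gene IDs 34490 were found in GENCODE M21 (GRCm38), the source of symbols and positions, and the remaining 785 took 0.122% of the counts.

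Genes with at least 10 counts in at least 4 of the 8 libraries were fitted with edgeR 4.0.16 in R 4.3.3 (TMM normalization, quasi-likelihood F test, replicate number as a block). P-values were adjusted by the Benjamini-Hochberg method over all genes tested. The block was used because all 4 same-numbered pairs deviated together (Pearson's r 0.183 to 0.431 across genes). The study names 4 donor mice for this experiment, but no source ties a replicate number to a mouse. Replicate 4 differed in sex from replicates 1 to 3, so the libraries came from more than 1 animal, and whether each number was a separate animal is not given in the sources used here. The p-values measure the spread between these libraries, estimated jointly with the other genes of a fit, and that spread may be technical in part. Alternatives were DESeq2 1.42.0, RLE and upper-quartile normalization, other filters, no block, all 12 libraries in 1 fit, and leaving out each library or pair.

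Named are the 12 largest changes in each direction, among called genes that averaged 100 counts or more and did not overlap between the groups, the 3 genes with the smallest p in each list and direction, and Parp1, Parp2, Nampt, Nnmt, Arg1, Nos2, Mrc1, Cd86, Retnla, Chil3, Cdkn1a, Trp53, Nfe2l2, Isg15, Irf7, Ciita, Csf1r, Adgre1 and Sirpa. Some genes that the rule names are not reported here. Others are said to have been chosen after their values were seen. The comparison and the 39 gene lists were chosen with earlier results of these data known.

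Reads of genes with shared sequence or overlapping exons are uncertain. Beside the genes marked in the text, over 10% of 31-base words were shared for Chil4, Clec10a, H2-K1, Ifi203, Isg15, Pcna, Rrm2, Ticam2 and Trp53, and over 10% of exonic length lay opposite another gene for Cdk4, Csf1r, Erap1, H2-DMa, Irf5, Lig3, Penk, Pycard, Rfc2 and Sqstm1. Promoter windows were taken from RefSeq. Depth was 21146291 to 31446849 counts, and limits from 0 counts cover counting error only.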

Additional observations from a re-analysis of the deposited data

Results flagged for a closer look

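For each gene named and each group, the highest and the lowest of the 4 libraries were set against the others by Dixon's test. Total counts, the percent of mitochondrial counts and the number of genes detected were tested in the same way. In 17 of these 370 groups a library stood apart. Chance alone gives about 1 in 20. DMSO replicate 1 was that library 7 times. It was high for Clec4n (14 CPM), Klf4 (146 CPM), Pdk1 (7.56 CPM), S100a8 (2.77 CPM), Cd81 (89.2 CPM) and Samhd1 (512 CPM) and low for Itgb3 (769.7 CPM). In each of these 7 genes the value lay on the side of the olaparib libraries, except for Klf4, which was lower with olaparib. Olaparib replicate 4 was the library that stood apart 3 times, high for Tnfaip8l3 (16.2 CPM), Tpx2 (31.6 CPM) and Gsta3 (14.2 CPM). The remaining cases were 1 library each. DMSO replicate 4 was high for F13a1 (0.504 CPM) and Trp53 (82.9 CPM), and DMSO replicate 3 for Sirpa (1499 CPM). Olaparib replicate 1 was high for Car6 (4.04 CPM) and Ddit3 (54.7 CPM), olaparib replicate 3 for Retnla (1841 CPM), and olaparib replicate 2 was low for Socs2 (21.7 CPM).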

How the results depend on the processing

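Of the 177 called genes named in the text, 141 kept their call under every one of up to 19 alternatives that could be run for them, 36 lost it under at least 1, and none reversed. Of those 36, 25 lost it only in the fit of all 12 libraries (Chil4, Fbln5, Rbp4, H2-Aa, H2-DMa, Ciita, Tap1, Psmb9, Chil3, Klf4, Csf1r, Parp2, Parp14, Gdf15, Plk2, Cdk4, Stard4, Hmgcs1, Nr1h3, Ctsl, Ctsk, Kdr, Tlr7, Clec10a and Nupr1). In that fit 1961 genes rose and 1710 fell, 1960 and 1710 of them called with 8 libraries too. A change of at least 2-fold as well left 877 and 235. Leaving out libraries gave 2507 to 3158 rises and 2407 to 3089 falls. Without the replicate block 2879 genes rose and 2831 fell, and DESeq2 with the block called 2727 and 2573. Of the called genes that lost their call in other fits too, Abca1 lost it under 6 of 19 alternatives. Slc7a2 and Tpx2 lost it under 5 each and Tapbpl under 4, fits that left out a library among them. Of the 5 uncalled genes named, Mrc1 gained a call under 3 alternatives, Retnla under 2 and Arg1 under 1, as given above, and the values that reversed were those of Arg1, Retnla and Cd86. The log2 fold change of Arg1 ran from −0.042 without replicate 4 to 0.499 without olaparib replicate 2 and was 0.396 without replicate 1, that of Retnla was −0.12 without olaparib replicate 3, and that of Cd86 ran from −0.37 without replicate 4 to 0.093 without replicate 1, with 0.081 without replicate 3, 0.084 without DMSO replicate 1, 0.018 without DMSO replicate 3 and 0.03 without olaparib replicate 2. The cause was not tested. Of 1292 counts within lists under an alternative, 134 moved by over 1.5 times. The labels do not say whether same-numbered libraries came from 1 mouse, and genes at low counts carry the counting error of a few reads.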

Other observations

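Nupr1, a stress protein of the ATF4 list chosen after its values were seen, stood at 23.6, 26.98, 30.7 and 29.03 CPM with DMSO and 10.2, 8.55, 6.297 and 11.7 CPM with olaparib (log2 fold change of −1.59 at an adjusted p of 2.26e-06). It was not called in the fit of all 12 libraries (adjusted p = 0.13). Of the called markers of other cell types, Klrb1c and Siglecf are described above, and the values of the others in all 8 libraries follow. Ccr7, a chemokine receptor of migrating dendritic cells, stood at 0.235, 0.275, 0.0332 and 0.378 CPM with DMSO and 0.708, 1.48, 1.57 and 2.01 CPM with olaparib (log2 fold change of 2.67 at an adjusted p of 0.000279). Batf3, a transcription factor of dendritic cells, stood at 20.2, 15.6, 15.7 and 14.3 CPM with DMSO and 25.2, 25.8, 32.1 and 23.6 CPM with olaparib (log2 fold change of 0.70 at an adjusted p of 0.000104). Xcr1, a chemokine receptor of cross-presenting dendritic cells, stood at 1.22, 1.82, 1.92 and 2.17 CPM with DMSO and 0.814, 0.976, 0.497 and 0.834 CPM with olaparib (log2 fold change of −1.19 at an adjusted p of 0.00357). Gzma, a granzyme of NK and T cells, stood at 0.188, 0.378, 1.43 and 0.976 CPM with DMSO and 0.637, 1.33, 3.31 and 2.95 CPM with olaparib (log2 fold change of 1.51 at an adjusted p of 0.000364). Cd79b, a chain of the B cell receptor complex, stood at 0, 0.344, 0.398 and 0.504 CPM with DMSO and 0.389, 0.234, 1.28 and 1.35 CPM with olaparib (log2 fold change of 1.32 at an adjusted p of 0.0388). S100a8, a calcium-binding protein of neutrophils and monocytes, stood at 2.77, 1.27, 1.36 and 1.102 CPM with DMSO and 2.76, 3.36, 2.82 and 2.88 CPM with olaparib (log2 fold change of 0.93 at an adjusted p of 0.0084). Pdgfra, a receptor of fibroblasts, stood at 0.282, 0.516, 0.498 and 1.197 CPM with DMSO and 0.602, 1.48, 1.24 and 2.33 CPM with olaparib (log2 fold change of 1.20 at an adjusted p of 0.00334), and Kdr, a VEGF receptor of endothelial cells, at 3.19, 5.81, 7.46 and 8.72 CPM with DMSO and 2.27, 2.303, 1.33 and 2.92 CPM with olaparib (log2 fold change of −1.48 at an adjusted p of 0.000295). The groups overlapped for Gzma, Cd79b, S100a8 and Pdgfra. Without the replicate block Gzma (adjusted p = 0.0641), Cd79b (adjusted p = 0.13) and Pdgfra (adjusted p = 0.0643) were not called. In the fit of 12 libraries these 3, S100a8 and Kdr were not called (adjusted p of 0.0582 to 0.367). Cd79b lost its call in 14 of 18 alternatives, DESeq2 among them (adjusted p = 0.0564), and S100a8 also without the pair of replicate 2 (adjusted p = 0.0519). The part of other cell types in these values was not tested.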
